A study of Mus musculus with 21 samples.

Results

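The genes of the opioid system examined here are 4 receptors and 3 peptide precursors, 7 of the 25239 gene symbols in each deposited table. They are Oprk1, Oprm1, Oprd1 and Oprl1 on the receptor side and Pdyn, Penk and Pnoc on the peptide side. The family was taken up because Oprk1 had 1 of the smallest unadjusted p-values of the hypothalamus, so the hypothalamus values below describe the 7 genes and do not test them. Choroid plexus was not used in that choice, and its values were tested.

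The tissues came from wild-type C57BL/6J mice. Hypothalamus gave 5 libraries from mice that overexpressed Ins2, a mouse insulin gene, in the choroid plexus, and 5 control libraries listed as untreated. Choroid plexus, the epithelium of the brain ventricles that makes cerebrospinal fluid, gave 6 Ins2 libraries and 5 control libraries, 21 libraries in all. The labels do not give the age of the mice, the promoter or vehicle that carried Ins2, or whether replicates were separate mice, so p-values measure only the spread between these libraries. The columns of the hypothalamus controls carry a GFP prefix, and whether those mice received GFP is not settled here.

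Opioid receptors are G protein-coupled receptors of the neuronal membrane. Through inhibitory G proteins they lower cyclic AMP, open inwardly rectifying (GIRK) potassium channels and close voltage-gated calcium channels, and so reduce firing and transmitter release. Dynorphins, cut from the Pdyn product, prefer the kappa receptor encoded by Oprk1. Enkephalins, cut mainly from the Penk product, prefer the delta and mu receptors of Oprd1 and Oprm1, and nociceptin, cut from the Pnoc product, acts on the receptor of Oprl1. In the hypothalamus, dynorphin is made by vasopressin neurons, by orexin neurons and by arcuate neurons that also make kisspeptin and neurokinin B, and opioid signalling there takes part in feeding, water balance and reproduction.

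Hypothalamus libraries held 27.4 to 62.1 M reads (M, 1e+06) and choroid plexus libraries 25.95 to 36.3 M. Values are gene counts divided by a size factor per library, here called scaled reads, and each tissue was scaled on its own. In choroid plexus Ins2 itself had 537 to 1105 reads in Ins2 libraries and 376 to 464 in control libraries, with no overlap. In hypothalamus it had 5 reads in Ins2 replicate 4 and 0 in the other Ins2 libraries and in every control library. The labelled tissues carried their markers: summed choroid plexus markers reached 3.34e+06 to 4.07e+06 scaled reads in Ins2 choroid plexus and 3.48e+06 to 3.89e+06 in control choroid plexus. Hypothalamus markers reached 41627 to 48526 in Ins2 hypothalamus and 40644 to 51330 in control hypothalamus. Choroid plexus control replicate 2 stood apart, with an oligodendrocyte marker sum of 49586 against at most 4991 in any other choroid plexus library, and a hypothalamus marker sum of 676 against at most 82.3.

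Oprk1 encodes the kappa receptor and lies on chromosome 1 (GRCm38, 5588466 to 5606131, plus strand). Its exons overlap no other annotated gene. The 5 Ins2 hypothalami had 828, 809, 921, 852 and 946 scaled reads, and the 5 control hypothalami had 1028, 1109.7, 990.03, 1161 and 1052. All 5 Ins2 libraries were below all 5 control libraries, the nearest values being 946 in Ins2 replicate 5 and 990.03 in control replicate 3. The mean was 871 ± 59.5 in Ins2 and 1068 ± 67.6 in control hypothalamus (SD, n = 5 each), a ratio of means of 0.816. These values rest on 741 to 1407 reads per Ins2 library and 811 to 1379 per control library.

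Oprk1 had a log2 fold change of -0.29 (SE 0.07) in limma, an unadjusted p of 0.000401 and a Benjamini-Hochberg adjusted p of 0.309 over 16363 genes, which is not past the threshold of 0.05. This p ranked 17 among all genes tested. No gene of the hypothalamus passed that threshold (0% called in limma, with 1624 genes at an unadjusted p under 0.05). edgeR's quasi-likelihood test also called 0, and DESeq2 called 21, none of them among the 7. DESeq2's independent filtering left Oprk1, Oprm1, Oprd1 and Pnoc without an adjusted p, so only Oprl1, Pdyn and Penk could have been called. Without that filtering DESeq2 called 5 genes, again none of the 7. Ranges lay apart with Ins2 lower in 0.727% of all genes, and 5.42% of genes had a log2 fold change at least as low as that of Oprk1.

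**Figure D1:**
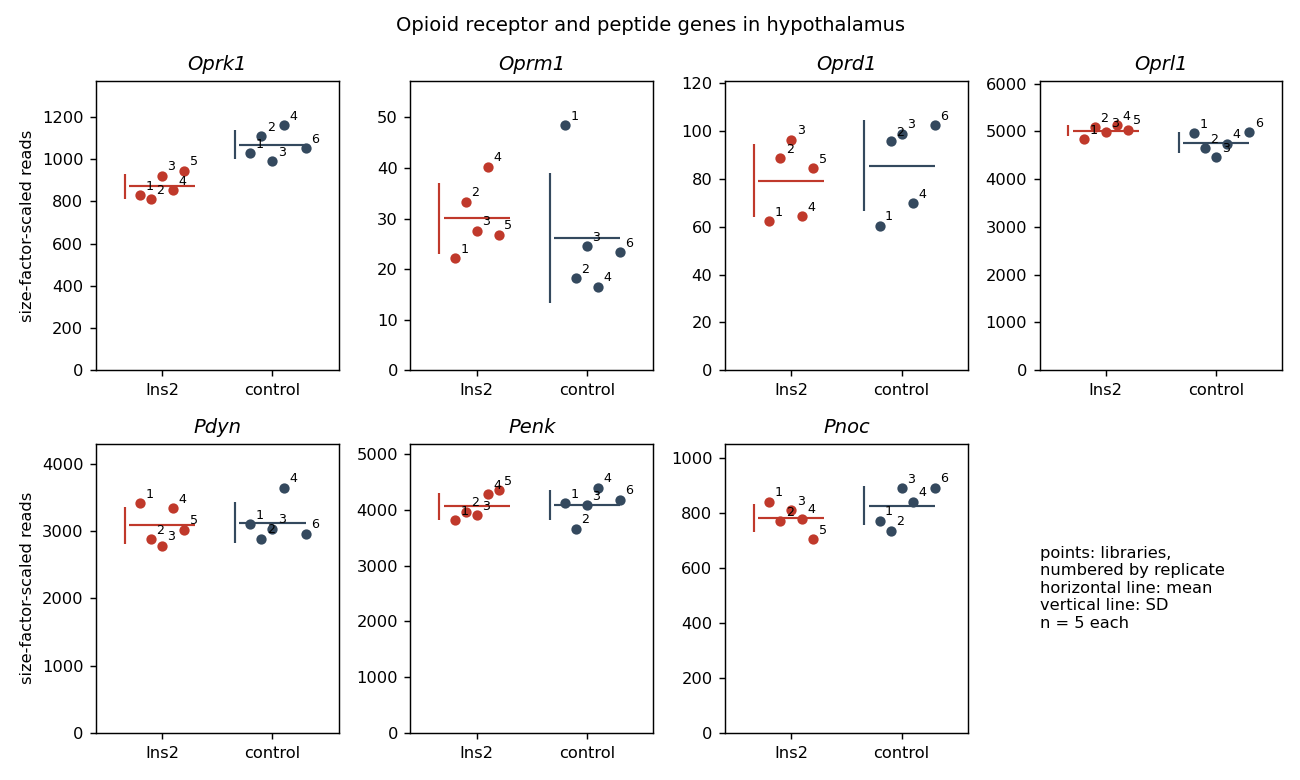
Scaled reads (vertical axes, from 0) of the 7 genes in each Ins2 and control hypothalamus library, numbered by replicate, with the mean (horizontal line) and SD (vertical line, n = 5 each). Oprk1 is the gene whose groups do not overlap, with means of 871 in Ins2 and 1068 in control.

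The other receptors gave ranges that overlapped between the groups. Oprm1, the mu receptor gene and the main target of morphine, lies on chromosome 10 (6758506 to 7038198, plus strand). It had 22.1, 33.4, 27.6, 40.2 and 26.8 scaled reads in Ins2 hypothalamus and 48.5, 18.2, 24.5, 16.5 and 23.3 in control hypothalamus. Control replicate 1 was the highest of all 10 libraries, and the next 2 were Ins2 replicates 4 and 2. With 21 to 58 reads per Ins2 library and 13 to 65 per control library, it was the lowest of the 7 genes, and the coefficient of variation was 23.2% in Ins2 and 49.2% in control.

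Oprd1, the delta receptor gene, lies on chromosome 4 (132110726 to 132144486, minus strand). It had 62.2, 88.6, 96.5, 64.4 and 84.5 scaled reads in Ins2 hypothalamus and 60.4, 95.8, 98.9, 69.8 and 102 in control hypothalamus. Each group held a low pair and 3 higher libraries, so the means of 79.2 ± 15.2 in Ins2 and 85.5 ± 19.0 in control (SD, n = 5 each) lay well within each other's spread.

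Oprl1, the nociceptin receptor gene, lies on chromosome 2 (181715016 to 181720985, plus strand) and was the steadiest of the 7. It had 4835, 5087, 4980.2, 5131 and 5032 scaled reads in Ins2 hypothalamus and 4963, 4650.0, 4462, 4743 and 4988 in control hypothalamus. Of the 5 Ins2 libraries, 3 were above the highest control and 2 lay inside the control range. The means were 5013 ± 115 in Ins2 and 4761 ± 220.2 in control (SD, n = 5 each), a log2 fold change of 0.08 (SE 0.04), opposite in sign to that of Oprk1.

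Among the precursors, Pdyn supplies the ligands of the kappa receptor and lies on chromosome 2 (129686565 to 129699844, minus strand). It had 3414, 2877, 2783, 3333 and 3018 scaled reads in Ins2 hypothalamus and 3099, 2887, 3036, 3639.8 and 2956 in control hypothalamus. The highest library was control replicate 4 and the lowest was Ins2 replicate 3, and the means of 3085 ± 278 in Ins2 and 3123 ± 299.5 in control (SD, n = 5 each) differed by far less than either SD. The log2 fold change was -0.02 (SE 0.07), beside -0.29 for the receptor of its peptides.

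Penk, the enkephalin precursor gene, lies on chromosome 4 (4133531 to 4138819, minus strand). It had 3813, 3971, 3903, 4281 and 4357 scaled reads in Ins2 hypothalamus and 4125, 3665, 4084, 4398 and 4186 in control hypothalamus. The groups covered nearly the same range, with means of 4065 ± 239.8 in Ins2 and 4092 ± 268 in control (SD, n = 5 each). Of its exon bases, 14.3% overlap A830012C17Rik on the opposite strand, and 1.19% of those of Oprm1 overlap opposite genes. Because the strand setting of the counting is not given in the sources used here, reads of those partners cannot be told apart from reads of Penk and Oprm1.

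Pnoc, the nociceptin precursor gene, lies on chromosome 14 (65400673 to 65425472, minus strand). It had 841, 770.2, 812, 779.5 and 706 scaled reads in Ins2 hypothalamus and 773, 736, 892.1, 842 and 892.5 in control hypothalamus. The 2 highest libraries were controls and the lowest was Ins2 replicate 5, while the other 7 libraries interleaved. Its log2 fold change was -0.08 (SE 0.08), with means of 782 ± 50.9 in Ins2 and 827 ± 70.7 in control (SD, n = 5 each).

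All 7 genes passed the filter on low values in hypothalamus, and 0 of 7 passed the adjusted threshold. Their log2 fold changes were below 0 for 5 and above 0 for 2, beside 49.7% and 50.3% of all genes, and the direction of Pdyn and Penk turned under some alternative settings. Over the 10 libraries, with each group's mean removed, Pearson's r between any 2 of the 7 genes ran from -0.77 (Oprd1 and Pdyn) to 0.54 (Oprm1 and Oprl1) over 21 pairs. The libraries share depth and dissection across all pairs, so these r are given as a description.

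Levels were compared between genes per kilobase of exon and per M reads. Penk was highest at 69.9 ± 4.18 in Ins2 and 71.1 ± 4.70 in control hypothalamus (SD, n = 5 each). Oprl1 followed with 37.6 ± 0.760 in Ins2 and 36.0 ± 1.56 in control, then Pdyn with 30.05 ± 2.75 in Ins2 and 30.7 ± 3.04 in control. Pnoc stood at 10.2 ± 0.657 in Ins2 and 10.9 ± 0.918 in control. Oprk1 stood at 2.68 ± 0.189 in Ins2 and 3.31 ± 0.215 in control.

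The lowest levels per kilobase were those of Oprd1, 0.554 ± 0.106 in Ins2 and 0.603 ± 0.133 in control hypothalamus, and of Oprm1, 0.105 ± 0.0239 in Ins2 and 0.0925 ± 0.0455 in control (SD, n = 5 each). Neighbours in this order did not overlap, except Oprl1 (33.8 to 37.5) and Pdyn (28.4 to 35.9) in control libraries. With the length of the longest transcript the order of the 7 was the same, but the ranges of Oprd1 and Oprm1 also overlapped. By that length Oprk1 stood at 5.24 in Ins2 and 6.49 in control, and Oprm1 at 0.348 in Ins2 and 0.307 in control.

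Oprl1 thus held most of the summed receptor level per kilobase: 91.8% ± 0.545 in Ins2 and 89.97% ± 0.583 in control hypothalamus (SD, n = 5 each). Oprk1 held 6.55% in Ins2 and 8.29% in control, Oprd1 1.35% in Ins2 and 1.51% in control, and Oprm1 0.256% in Ins2 and 0.230% in control. With the longest transcript Oprk1 held 10.2% in Ins2 and 12.7% in control, and Oprm1 0.674% in Ins2 and 0.600% in control. Of the summed level of the 3 precursors, Penk held 63.5% in Ins2 and 63.1% in control, and Pdyn 27.3% in Ins2 and 27.2% in control. Pnoc held the remaining 9.27% in Ins2 and 9.67% in control.

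**Figure D2:**
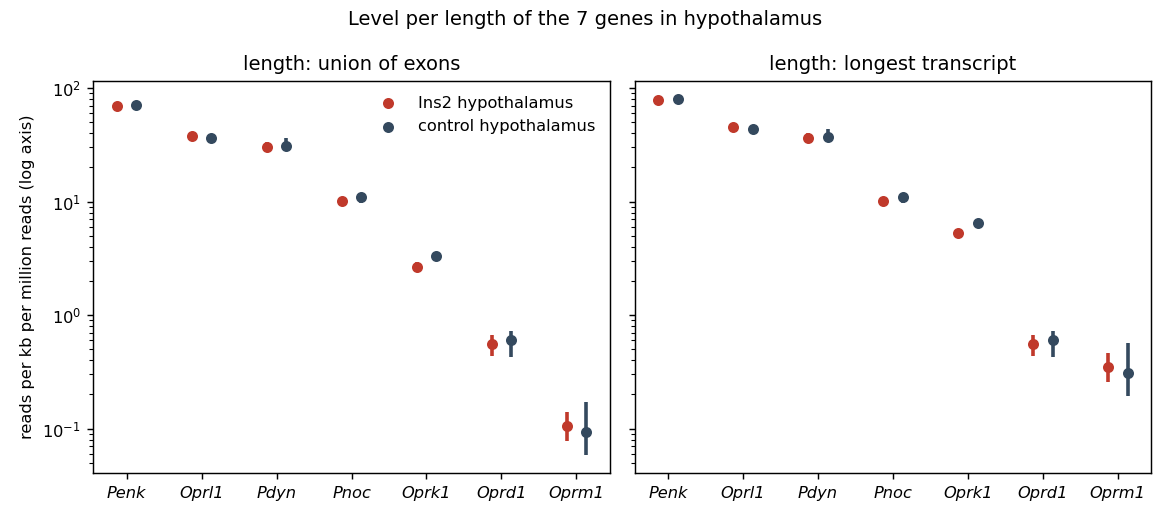
Reads per kilobase per M reads (log axis) of the 7 genes in Ins2 and control hypothalamus, with the length taken as the union of exons (left) or the longest transcript (right). Points are means and vertical lines the lowest to highest of 5 libraries, and the order runs from Penk (69.9 in Ins2 and 71.1 in control by the union) to Oprm1 (0.105 in Ins2 and 0.0925 in control).

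Genes that make, cut, transmit or end opioid signals were followed in 11 lists of 50 genes. In hypothalamus 0 of the 50 passed the adjusted threshold in either direction, beside 0% of all genes. None of the 50 had groups whose ranges lay apart, beside 0.727% of all genes that lay apart with Ins2 lower. The share of all genes apart with Ins2 higher is not given here, so this count is not read as particular to the 50. The log2 fold change was above 0 for 34 and below 0 for 16, with a median of 0.04 beside 0.001 over all genes. With equal totals per library these counts were 29 and 21. An unadjusted p under 0.05 was found for 11 of the 50, beside 9.92% of all genes, and 10 of the 11 were higher in Ins2, beside 5.85% of all genes that were higher and 4.08% that were lower at that p. With equal totals per library, 755 genes were higher and 891 lower at that p.

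Upstream of the receptors, the peptide side showed no called gene. Pomc, the precursor gene of beta-endorphin, had 2626 ± 279 scaled reads in Ins2 and 2907 ± 347 in control hypothalamus (SD, n = 5 each, log2 fold change -0.14, adjusted p 0.560 in limma). Of 7 genes of peptide processing, 4 lay above 0 and 3 below (2 and 5 with equal totals per library, and 2 to 5 above 0 when 1 library was left out). Cpe, the carboxypeptidase that trims basic residues from peptide intermediates, had 78667 ± 2523 in Ins2 and 78317 ± 2705 in control. Scg5, which encodes the 7B2 chaperone of prohormone convertase 2, had 8435 ± 363 in Ins2 and 8979 ± 907 in control (adjusted p 0.635).

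The 5 genes of peptide breakdown all had fold changes above 0 (median 0.19), and 0 were called. Ace, a peptidase that can cleave enkephalins, had 2262 ± 123 scaled reads in Ins2 and 1991 ± 175 in control hypothalamus (SD, n = 5 each, log2 fold change 0.19, adjusted p 0.362 in limma). Dpp3, also an enkephalin-degrading peptidase, had 1289 ± 102 in Ins2 and 1200.4 ± 78.5 in control.

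Downstream of the receptors, 3 of 5 inhibitory G protein alpha subunits lay above 0, or 2 of 5 with equal totals per library and 2 to 5 when 1 library was left out. Gnaz had 3822 ± 217 scaled reads in Ins2 and 3497 ± 176 in control hypothalamus (SD, n = 5 each, log2 fold change 0.13, adjusted p 0.428 in limma). Gnai1 (6663 in Ins2, 6689.5 in control) and Gnai2 (13295 in Ins2, 13185 in control) were nearly level. All 4 genes of GIRK channels lay above 0 (median 0.13; 3 of 4 without Ins2 replicate 5), with Kcnj9 at 3261 ± 264 in Ins2 and 2892 ± 141 in control (adjusted p 0.371). Both calcium channel genes lay above 0 (median 0.08), but 1 of 2 did without control replicate 4 (median 0.02), with Cacna1a at 5838 ± 272 in Ins2 and 5366 ± 728 in control.

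Adenylyl cyclases, the enzymes that make cyclic AMP, were above 0 in 6 of 6 genes, beside 50.3% of all genes, with a median log2 fold change of 0.18. An unadjusted p under 0.05 in limma was found for 4 of the 6, all higher in Ins2, beside 5.85% of all genes. The list was chosen with earlier results of these data known, so these counts are a description. Without control replicate 4 the median was 0.11 and 2 of the 6 had such a p, as did 2 without Ins2 replicate 3, and without control replicate 3 the genes above 0 were 5 of 6. Adcy5 had 8736 ± 349 scaled reads in Ins2 and 7763 ± 724 in control hypothalamus (SD, n = 5 each, log2 fold change 0.17, adjusted p 0.350 in limma, the lowest of the 50 genes). Adcy3 had 4378 ± 261 in Ins2 and 3889 ± 529 in control (adjusted p 0.443). Adcy1 had 1668 ± 85.4 in Ins2 and 1409 ± 257 in control, and its adjusted p of 0.365 became 0.0327 without control replicate 6 and ran up to 0.674 without other libraries. Among the fits in limma that each left out a single library, Adcy1 was called only in the fit without control replicate 6. No other gene of the 50 was called in any of those fits, and Adcy1 is named here after its values were seen.

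Among receptor kinases and arrestins, which end receptor signalling, 5 of 6 genes lay above 0, or 4 of 6 with equal totals per library, with a median of 0.04 that was 0.005 without control replicate 4. Arrb1 had 9551 ± 335 scaled reads in Ins2 and 8727 ± 679 in control hypothalamus (SD, n = 5 each, log2 fold change 0.13, adjusted p 0.395 in limma), while Arrb2 had 2318 in Ins2 and 2316 in control. The list of RGS proteins, which speed the shutting off of G proteins, had 6 of 7 genes below 0, with a median log2 fold change of -0.03. Without control replicate 4 that turned to 3 of 7 below 0, with a median of 0.007. Rgs20 gave its lowest p, with 608 ± 40.9 in Ins2 and 663 ± 73.6 in control (adjusted p 0.671), and Rgs4 had 4966 in Ins2 and 5134 in control.

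The transcription factors that act on genes of this family lay above 0 in 3 of 3, or 2 of 3 without Ins2 replicate 4. Kcnip3, which encodes DREAM, a repressor of prodynorphin transcription, had 2479 ± 170.4 scaled reads in Ins2 and 2419 ± 135 in control hypothalamus (SD, n = 5 each). Rest, a repressor of neuronal genes, had 89.6 ± 21.0 in Ins2 and 75.2 ± 10.5 in control (adjusted p 0.747 in limma), and Creb1 had 1485 in Ins2 and 1444 in control.

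Of 4 neuropeptide genes of neurons that also make dynorphin, 1 lay above 0 and 3 below, or 2 and 2 when some single libraries were left out, and 0 were called. Hcrt, the orexin precursor gene, had 10201 ± 1109 scaled reads in Ins2 and 8989 ± 831 in control hypothalamus (SD, n = 5 each, log2 fold change 0.18, adjusted p 0.400 in limma). Avp, the vasopressin gene, had 10897 ± 1462 in Ins2 and 11134 ± 2855 in control. The arcuate partners of Pdyn were Kiss1, with 34.5 ± 12.4 in Ins2 and 52.8 ± 11.6 in control (log2 fold change -0.64, adjusted p 0.483), and Tac2, with 1188 ± 35.7 in Ins2 and 1305 ± 152 in control. Both are named after their values were seen.

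**Figure D3:**
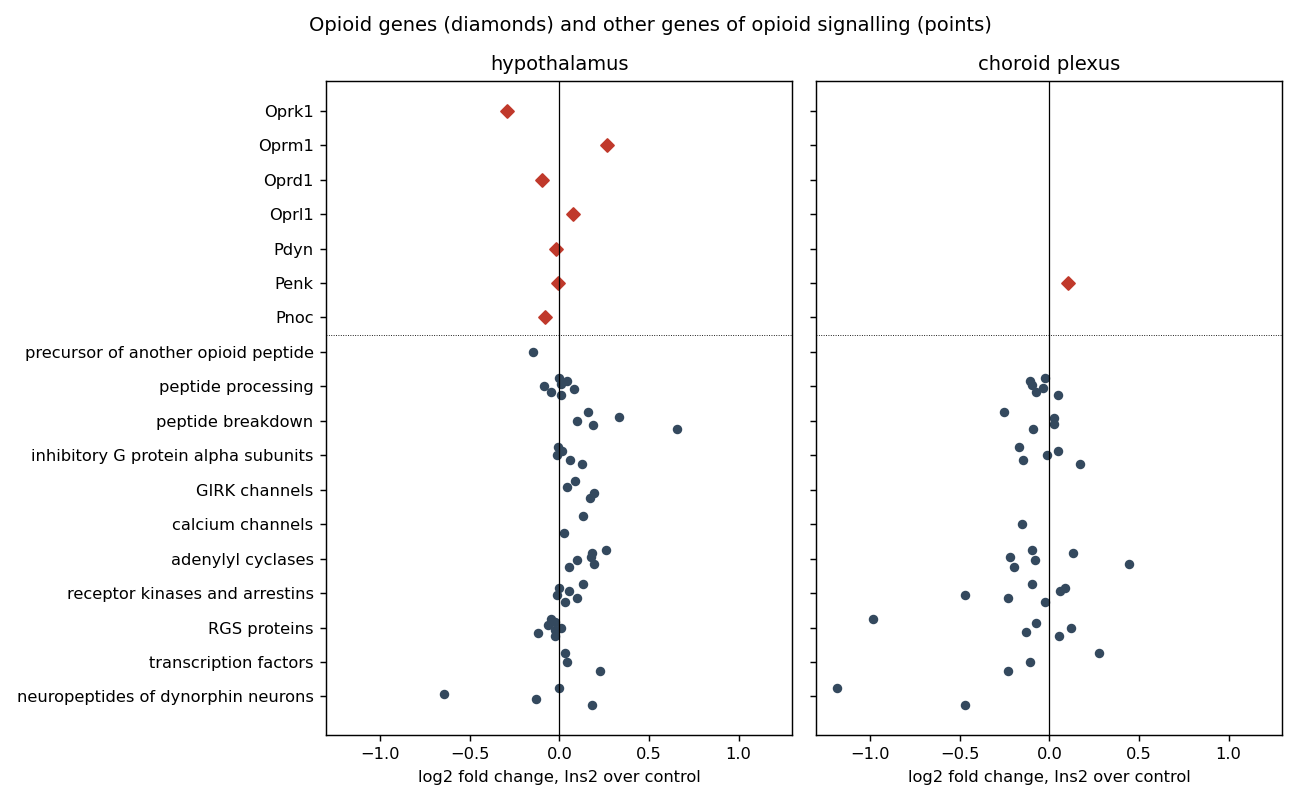
Log2 fold change of Ins2 over control (horizontal axis) in hypothalamus (left) and choroid plexus (right) for the opioid genes (diamonds) and for 50 other genes of opioid signalling grouped by role (points), where a gene passed the filter on low values. The 6 adenylyl cyclase genes lie above 0 in hypothalamus with all libraries in the fit (5 of 6 without control replicate 3), and none of the points is a called gene.

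In bulk tissue, fewer cells that make Oprk1 and less Oprk1 RNA per cell cannot be told apart. Markers of neighbouring brain parts were therefore set beside it. Of 10 hypothalamus markers, 8 had log2 fold changes below 0 (median -0.12). All 7 thalamus markers lay above 0 (median 0.25), with sums of 5378 to 6920 scaled reads (median 6409) in Ins2 and 5058 to 5767 (median 5284) in control hypothalamus. The thalamus median was 0.15 without Ins2 replicate 3 and 0.16 without Ins2 replicate 4, and 6 of 7 lay above 0 without Ins2 replicate 1 or control replicate 3. Striatum markers summed to 9468 to 10224 in Ins2 and 9249 to 10403 in control, and 6 of 10 lay below 0. Pituitary markers summed to 21.3 to 629 in Ins2 and 26.8 to 729 in control, with 4 of 5 below 0.

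No marker in these 4 lists was called in limma, and neither was any other gene of the hypothalamus. Of the 7 thalamus markers, 4 had an unadjusted p under 0.05 in limma (3 with equal totals per library). All 4 were higher in Ins2, beside 5.85% of all genes. The marker lists were chosen with earlier results of these data known, so this count is a description. No marker of any list was at 0 in all libraries. With each group's mean removed, Pearson's r of Oprk1 over the 10 libraries was 0.52 with the thalamus score, -0.67 with the striatum score, -0.34 with the hypothalamus score and 0.22 with the pituitary score, given as a description since the libraries share their dissection. The part of these regions in the Oprk1 difference was not tested. Neuron markers summed to 135713 to 142113 in Ins2 and 134823 to 144825 in control hypothalamus, an overlap.

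**Figure D4:**
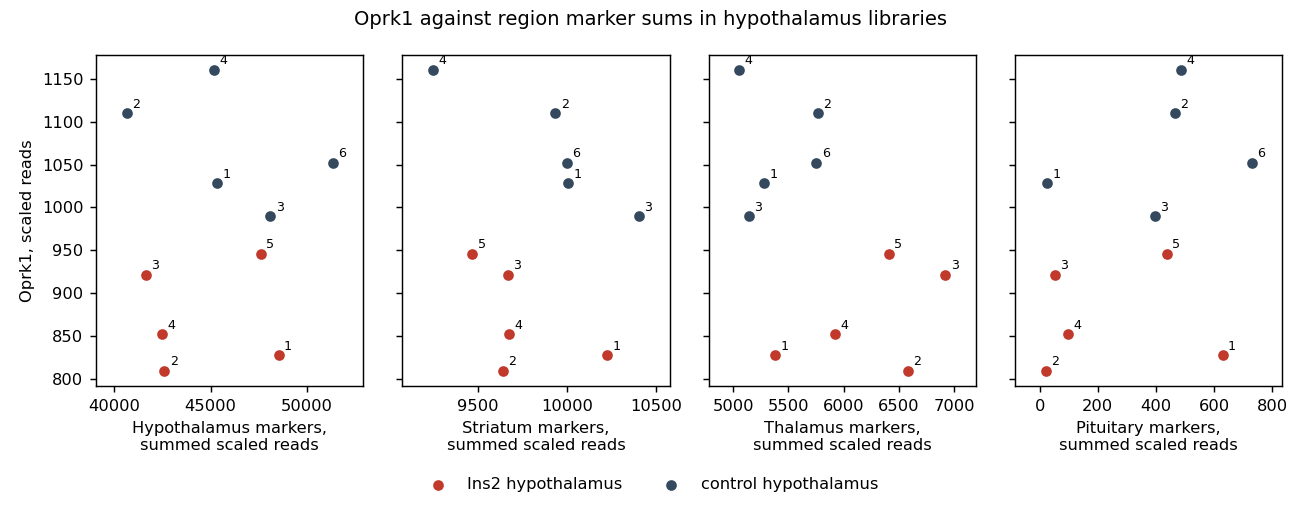
Oprk1 in scaled reads (vertical axis, not from 0) against summed scaled reads of hypothalamus, striatum, thalamus and pituitary markers (horizontal axes) in each Ins2 and control hypothalamus library, numbered by replicate. The Ins2 libraries lie at 809 to 946 and the control libraries at 990.03 to 1161 on the Oprk1 axis.

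The genes most like Oprk1 across hypothalamus libraries were ranked by Pearson's r of the deviations from the group mean, over 10 libraries and 14247 genes. The leading 5 were Capsl (r 0.958), Apobec2 (0.911), Tmprss7 (0.906), Synj2bp (0.901) and Ddx6 (0.889), and by Spearman's rank correlation only Capsl stayed among the leading 5. Capsl had 49.1 ± 19.996 scaled reads in Ins2 and 89.2 ± 31.8 in control hypothalamus (SD, n = 5 each, log2 fold change -0.87). Tmprss7 had 42.3 ± 11.3 in Ins2 and 71.7 ± 15.4 in control (log2 fold change -0.76).

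The other 3 genes of the leading 5 had log2 fold changes of 0.18 for Apobec2, -0.04 for Synj2bp and -0.01 for Ddx6. The genes most like Pdyn were Psmg2 (r 0.938), Mansc1 (0.935) and 4930480K23Rik (0.931), and those most like Penk were Tmem114 (0.924), Trmu (0.921) and Rab3ip (0.918). With 10 libraries and 14247 genes compared, these ranks describe the libraries.

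In choroid plexus the 7 genes were at or near the limit of detection. At these depths a count of 0 was taken to leave room for 3 reads, which is 0.0827 to 0.116 per M. The 95% interval of a count of 0 reaches somewhat higher, to 3.69 reads, or up to 0.142 per M. Both limits cover counting error only. Penk had 26, 3, 29, 18, 7 and 30 reads in Ins2 libraries and 17, 19, 24, 23 and 2 in control libraries. It averaged 0.661 reads per M in Ins2 and 0.569 in control choroid plexus, beside 114 in Ins2 and 116 in control hypothalamus, and was the only 1 of the 7 to pass the filter on low values.

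Oprk1 had 6, 10, 4, 0, 2 and 6 reads in Ins2 choroid plexus and 2, 14, 2, 8 and 17 in control choroid plexus. Oprl1 had 8, 4, 9, 14, 2 and 3 in Ins2 and 10, 5, 7, 0 and 5 in control, and Pdyn had 3, 17, 1, 5, 1 and 3 in Ins2 and 0, 16, 0, 3 and 0 in control. The groups overlapped in each of these genes. The highest control library for Pdyn was replicate 2, the one with raised oligodendrocyte and hypothalamus markers. Ins2 replicate 2 had 17 Pdyn reads, with marker sums of 28.1 (hypothalamus) and 3135 (oligodendrocyte) scaled reads. The part of other tissue in the Pdyn reads was not tested.

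The other 3 genes were close to absent from the choroid plexus reads. Oprm1 had 2 reads in Ins2 replicate 2 and 0 in the other Ins2 libraries, and 1, 5, 1, 1 and 0 reads in control libraries. Oprd1 had 3 reads in Ins2 replicate 2, 7 in replicate 6 and 0 in all other libraries of both groups. Pnoc had 1 read each in Ins2 replicates 4 and 5 and 4 in control replicate 2, and 0 elsewhere.

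No difference between the groups passed a test in choroid plexus. In limma Penk had a log2 fold change of 0.10 (95% interval -1.26 to 1.47, adjusted p 0.989), 0 of 1 tested members beside 0.0138% called over 14533 genes. The exact two-sided permutation test over 462 arrangements, whose smallest possible p is 0.00216, gave differences in mean log2(value + 1) of -0.76 for Oprk1 (p = 0.320), 0.37 for Oprl1 (p = 0.639), 0.93 for Pdyn (p = 0.277) and 0.10 for Penk (p = 0.907). Without control replicate 2 the difference of Pdyn was 1.60 (exact permutation p = 0.0429, not adjusted for the 4 genes tested), with Ins2 higher. Oprm1 had reads in too few of the 11 libraries for the test, and met its condition only when a library with 0 reads was left out. Without control replicate 5 its difference was -1.14 (exact permutation p = 0.0429, not adjusted), with Ins2 lower, and without Ins2 replicate 1, 3, 4, 5 or 6 it was -0.81 (p = 0.167), all from libraries of 0 to 5 reads. Control replicate 5 was the only control library with 0 Oprm1 reads. Leaving it out both met the condition and widened the difference, so that p cannot decide whether the groups differ.

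**Figure D5:**
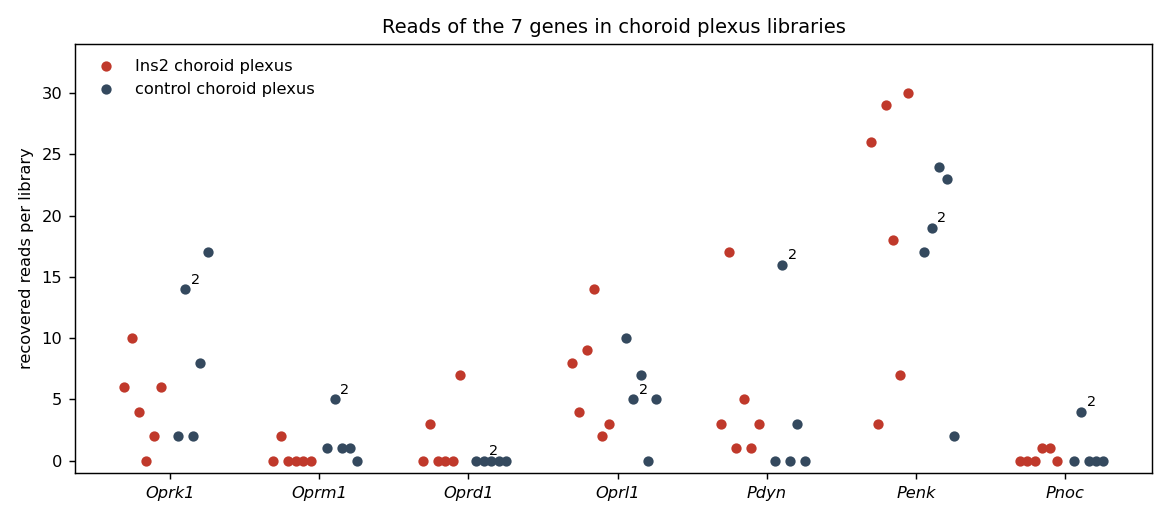
Recovered reads per library (vertical axis) of the 7 genes in Ins2 and control choroid plexus, with control replicate 2 marked. Penk reaches 30 reads in Ins2 and 24 in control, and the groups overlap in every gene.

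Of the 50 other genes of opioid signalling, 38 passed the filter in choroid plexus and 0 were called, beside 0.0138% of all genes. The log2 fold change was above 0 for 12 and below 0 for 26 (median -0.09, beside -0.005 over all genes, of which 48.4% lay above 0 and 51.6% below), and without control replicate 2 it was above 0 for 13 and below 0 for 24 (median -0.04). None of the 4 GIRK channel genes passed the filter. Of the 5 with an unadjusted p under 0.05 (2 with equal totals per library and 2 to 5 when 1 library was left out), all lower in Ins2 beside 3.67% of all genes (370 genes, against 535 higher, with equal totals per library), Adcy5 had 2551 scaled reads in Ins2 and 2964 in control choroid plexus (adjusted p 0.456 in limma). The adenylyl cyclases lay above 0 in 2 of 6 here and in 6 of 6 in hypothalamus, a difference between the tissues that was not tested.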

How the data were processed

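Bulk messenger RNA of choroid plexus and hypothalamus was sequenced from strand-marked poly(A) libraries, per the labels' protocols. Reads were aligned with HISAT2 to GRCm38 (mm10), counted with featureCounts and scaled with DESeq2, per the submitters' processing notes. The deposited tables, 1 per tissue, hold signal values, which per the labels are counts that the authors divided by DESeq2 size factors. No source used here gives versions or the strand setting. When each library was divided by its smallest step, 100% of values came out as whole reads (tolerance 0.02) in all 21 libraries.

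Groups followed the labels. The main test was limma 3.58.1 (R 4.3.3) on log2(value + 1) with a mean-variance trend, run separately in the tissues, for genes with a mean of at least 10, with Benjamini-Hochberg adjustment and a threshold of 0.05. Fold changes on this scale understate those of low genes. Single genes of the 7 in choroid plexus also had an exact permutation test where libraries with reads were at least as many as libraries without. On simulated data with 200 changed genes, 42% (fold 1.25), 69.5% (fold 1.5) and 83.5% (fold 2) were recovered in hypothalamus. In choroid plexus 20.5%, 56.5% and 78.5% were recovered at those folds. At fold 2, 18 of 185 calls in hypothalamus and 7 of 164 in choroid plexus were false. Lengths and positions came from the GENCODE annotation of GRCm38. Alternatives were edgeR 4.0.16, DESeq2 1.42.0, other pseudocounts, filters and scalings, array weights, a replicate block and leaving out each library.

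The 7 genes, the 50 other genes and the marker lists were chosen with earlier results of these data known. From each list the text names the 2 genes of highest level per kilobase in control hypothalamus and the gene of smallest p there, with some left out, and any others as marked.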

Additional observations from a re-analysis of the deposited data

Results flagged for a closer look

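Of 22 groups of libraries checked, 4 held a library far from the others of its group, where chance gives about 1 in 20. Oprm1 had 48.5 scaled reads in hypothalamus control replicate 1. Pdyn had 3639.8 in hypothalamus control replicate 4. In choroid plexus, Pdyn had 14.1 scaled reads in Ins2 replicate 2 and Oprm1 had 4.30 in control replicate 2. Control replicate 2 of choroid plexus is also the library with an oligodendrocyte marker sum of 49586, and the part of other tissue in its reads was not tested.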

How the results depend on the processing

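Oprk1 was chosen for its p in hypothalamus, where its groups do not overlap. Leaving out 1 library therefore could not turn its direction. It kept that direction under all 21 alternatives, which reuse the same reads, with a log2 fold change from -0.33 to -0.26, and was called under none. Its adjusted p ran from 0.0505 (DESeq2 without independent filtering, an alternative chosen after seeing the data) to 0.674, and was 0.0960 without control replicate 6. DESeq2 with its default filtering gave no adjusted p to Oprk1, Oprm1, Oprd1 and Pnoc. Oprm1, Oprd1, Oprl1 and Pnoc kept their direction under every alternative run, while Pdyn kept it in 17 of 21 and Penk in 16 of 21.

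The count of called genes in hypothalamus was 0 in limma, 21 with DESeq2 and 5 with DESeq2 without independent filtering. Leaving out 1 library gave 0 to 18, the counts above 0 being 1 without control replicate 4 and 18 without control replicate 6. The replicate numbers did not pair the libraries (r of same-numbered deviations -0.07 to 0.009 in hypothalamus). With the replicate block 54 genes were called, none of the 7. Ins2 replicate 5 and control replicate 6 have no same-numbered partner, so in that block they add nothing to the contrast. The labels also carry letter codes whose numbering differs from the replicate numbers for some hypothalamus libraries. A block by those codes was not fitted. The block is therefore not separate from leaving out control replicate 6. Among the 50 other genes of opioid signalling, the block called Adcy1 (adjusted p 0.0435 in limma), as did the fit without control replicate 6 (0.0327). In choroid plexus 2 genes were called in limma, against 1 with a mean of at least 50, 25 with DESeq2, 24 with DESeq2 without independent filtering and 6 with array weights. Leaving out 1 library gave 1 to 4, with 1 without Ins2 replicate 1, Ins2 replicate 4 or control replicate 4, and 4 without Ins2 replicate 5.

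In choroid plexus, leaving out 1 library gave differences of -1.08 to -0.34 for Oprk1, -0.22 to 0.66 for Oprl1, 0.56 to 1.60 for Pdyn and -0.45 to 0.54 for Penk. The direction turned for Oprl1 without control replicate 4 (-0.22). It turned for Penk without Ins2 replicate 1 (-0.03), 3 (-0.11) or 6 (-0.11) and without control replicate 5 (-0.45). The replicate block, in which Ins2 replicate 6 has no control partner, repeated the Penk value found without that library (-0.11). Pdyn passed 0.05 only without control replicate 2 (1.60, exact permutation p = 0.0429). Oprm1, not testable with all libraries, did so without control replicate 5 (-1.14, exact permutation p = 0.0429), with Ins2 lower. That library was the only control with 0 Oprm1 reads, so its removal favoured this outcome and no conclusion is drawn from it. The cause of these changes was not tested. With 0 to 30 reads per library in choroid plexus, depth limits these values.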

Other observations

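Summed pituitary markers separated the hypothalamus libraries into 4 of 21.3, 53.1 and 96.6 scaled reads (Ins2 replicates 2, 3 and 4) and 26.8 (control replicate 1), and 6 of 438 to 629 (Ins2 replicates 5 and 1) and 397 to 729 (control replicates 3, 2, 4 and 6). Oprm1 stood at 33.4, 27.6, 40.2 and 48.5 scaled reads in those 4 libraries. In the 6 others it stood at 22.1 and 26.8 in Ins2 replicates 1 and 5, and at 18.2, 24.5, 16.5 and 23.3 in control replicates 2, 3, 4 and 6. The nearest libraries across the split were Ins2 replicate 3, with 28 Oprm1 reads (95% interval 18.6 to 40.5), and Ins2 replicate 5, with 26 (17.0 to 38.1). These lie within counting error of each other. Ins2 replicates 2 and 3 and control replicate 1 were also the deepest libraries (62.1, 36.2 and 47.2 M reads). The share of all genes that split in this way was not computed. The split was seen in the data, cuts across the Ins2 and control groups, and was not tested. In the same 4 libraries Oprk1 had 809, 921 and 852 scaled reads in Ins2 replicates 2, 3 and 4 and 1028 in control replicate 1.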
